A study of Caenorhabditis elegans with 2 samples.

Results

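The coatomer is the protein coat of COPI vesicles, and its subunits are encoded in Caenorhabditis elegans by 7 genes: copa-1 (alpha), copb-1 (beta), copb-2 (beta-prime), copd-1 (delta), cope-1 (epsilon), copg-1 (gamma) and copz-1 (zeta). They were taken by name, and all 7 were found among the 19973 protein-coding genes of the nuclear chromosomes. Chromatin immunoprecipitation and sequencing (ChIP-seq) with an anti-GFP antibody had mapped the bZIP transcription factor XBP-1, tagged at its C-terminus with GFP and FLAG. The animals were whole hermaphrodite L1 larvae of the strain OP506, which has the genotype unc-119(tm4063) III; wgIs506, collected 6 h after synchronization by bleaching and starvation. The labels name no mutation of the animals' own xbp-1 and no promoter for the transgene, while their antibody field reads xbp-1. The 2 samples are biological replicates of 1 group, so no condition was compared.

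COPI vesicles form mainly on Golgi membranes, where the GTPase Arf1 in its GTP-bound form recruits coatomer as a whole. They carry escaped residents of the endoplasmic reticulum (ER) back from the Golgi, among them chaperones held by receptors for the KDEL signal. The beta, gamma, delta and zeta subunits form the layer next to the membrane and are related to the subunits of clathrin adaptors, while alpha, beta-prime and epsilon form the outer layer. XBP-1 is a transcription factor of the unfolded protein response of the ER. In mammals it binds the unfolded protein response (UPR) element, whose core is TGACGTG.

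For all but copa-1, whose stretch is not printed, the sequence from 50 bp before to 50 bp after the summit is shown on the coding strand of the coatomer gene, from the RefSeq sequence of the assembly WBcel235 (ce11), because it holds what the peaks had in common and where they differed. Capitals mark TGACGTG or its reverse complement CACGTCA, and the word GGTCTCG, which was picked after these sequences had been read. The first stretch lies upstream of copb-1 but outside its promoter window, and for cope-1 only 27 bp are shown since the summit lies in its 5' UTR.
upstream of copb-1, chrII:3077077-3077177, plus strand: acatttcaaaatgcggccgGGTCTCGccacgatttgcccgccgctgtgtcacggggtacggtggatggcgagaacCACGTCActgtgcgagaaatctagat
copz-1, chrII:10872686-10872786, plus strand: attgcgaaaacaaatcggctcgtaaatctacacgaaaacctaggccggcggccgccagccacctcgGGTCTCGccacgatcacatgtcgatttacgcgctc
copd-1, chrIII:6625440-6625540, minus strand: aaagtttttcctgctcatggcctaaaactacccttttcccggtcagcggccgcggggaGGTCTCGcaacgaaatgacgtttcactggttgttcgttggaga
copb-2, chrIV:9459373-9459473, plus strand: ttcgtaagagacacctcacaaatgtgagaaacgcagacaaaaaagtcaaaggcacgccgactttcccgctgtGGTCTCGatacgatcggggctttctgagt
copg-1, chrIV:10151599-10151699, plus strand: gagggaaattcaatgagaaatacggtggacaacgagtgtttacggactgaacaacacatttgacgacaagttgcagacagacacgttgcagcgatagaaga
cope-1, chrIII:13426259-13426285, plus strand: tattttgaagTGACGTGgtgaattttt

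Of the 7 coatomer genes, 6 had a promoter peak in the thresholded list, which holds the 3641 regions that passed the authors' irreproducible discovery rate (IDR) procedure. A gene had a promoter peak when a summit fell in a window that begins 1000 bp before any of its annotated transcript starts and ends 200 bp after it. The same held for 15.5% of all protein-coding genes. Each of the 6 had exactly 1 thresholded peak within 3000 bp of the gene, so none had a choice of peaks. The 7th, copb-1, had none in its window, but 1 of the strongest peaks of the whole list lay between copb-1 and its divergent neighbour. With 1 group, peak lists only and no RNA measured, the share could not be set against genes of like activity.

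**Figure D1:**
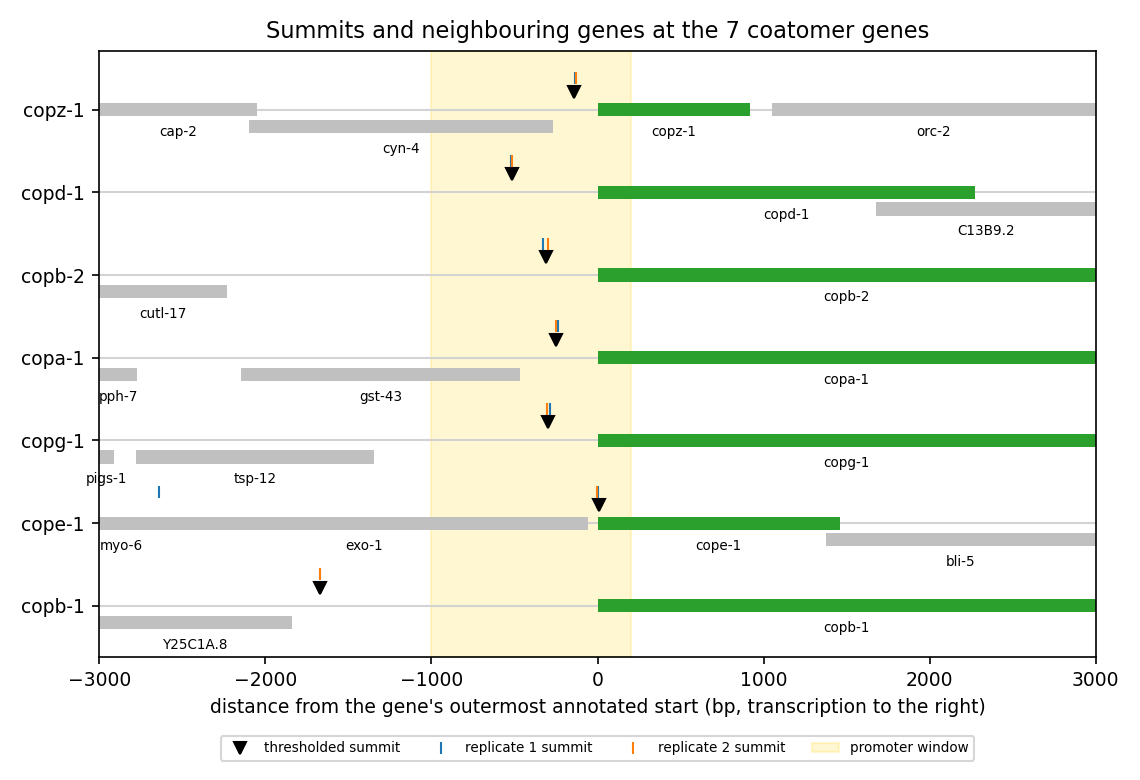
Thresholded summits (black triangles) and summits among the 3641 strongest regions of replicate 1 (blue) and replicate 2 (orange), by distance in bp from the outermost annotated start of each coatomer gene, with transcription to the right. Green bars are the coatomer genes, grey bars other protein-coding genes (lower bars on the opposite strand), and the shaded span is the promoter window. In 6 rows the summit lies in the window, and in the row of copb-1 it lies 1669 bp upstream.

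Peaks were ranked by the signal value that the authors' caller gave, whose scale is not stated, so values are comparable within 1 list only. The thresholded list is the 3641 highest values of the list called on pooled replicates (26088 regions), and the relaxed lists of replicate 1 and replicate 2 held 30000 and 28535 regions, peaks and background together. The 6 promoter peaks had a median rank of 1342.5, against 1448.5 over the strongest promoter peaks of all 3092 genes that had one. Of the 6, 5 stood among the 1820 strongest peaks, as did 60.0% of the 3092 genes. The ranks thus lay near the middle of those of promoter peaks at large.

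In the inner layer, the strongest promoter peak belonged to copz-1 (WBGene00010333), the small zeta subunit. Its region, chrII:10872635-10872856, had rank 350 and a signal value of 452 in the thresholded list. It ranked 415 in replicate 1 and 321 in replicate 2, with signal values of 211 and 230. The summit at 10872736 lay 143 bp upstream of copz-1 and 125 bp upstream of cyn-4, a cyclophilin (peptidyl-prolyl isomerase) gene that runs the other way across a gap of 267 bp. The summit lay in the promoter windows of both genes, and with each summit given to the nearest start alone it went to cyn-4.

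copd-1 (WBGene00015734), the delta subunit, had a peak of nearly the same strength, at rank 387 with a signal value of 427 (chrIII:6625375-6625604). The ranks were 428 in replicate 1 and 367 in replicate 2, with signal values of 207 and 216. Its summit at 6625490 was the furthest from a start among the 6, at 518 bp upstream, and a window of 500 bp lost it. No other protein-coding gene shared it: the next one upstream, pdfr-1, lies 7864 bp away.

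copg-1 (WBGene00011775), the gamma subunit, is the only coatomer gene annotated with more than 1 start, with 4 starts over 5 transcripts. Its peak at chrIV:10151461-10151836 had rank 1569 and a signal value of 167. Replicate 1 ranked it 1497 and replicate 2 ranked it 1558, with signal values of 90.3 and 83.2. The summit at 10151649 lay 298 bp before the outermost start, and no other protein-coding gene had it in its window. Replicate 1 also had weak regions at ranks 10828 and 14196 in the windows of copg-1, 171 bp after and 955 bp before a start, and replicate 2 had neither.

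copb-1 (WBGene00021292), the beta subunit, had no thresholded peak in its window. A relaxed region 33 bp before its start stood at rank 20079 of the pooled list, with a signal value of 18.9 and a -log10 q of 0.108. Replicate 1 had it at rank 13864, 36 bp before the start, and replicate 2 listed no region in the window. The peak at chrII:3076986-3077335, by contrast, had rank 46 and a signal value of 1133, with ranks 48 and 45 and signal values of 586 and 551 in replicates 1 and 2. Its summit at 3077127 lay 1669 bp upstream of copb-1 and 168 bp upstream of Y25C1A.8, on the opposite strand, which RefSeq names as a zinc finger protein with a Ran-binding domain. No protein-coding gene is annotated in the 1836 bp between them. A window reaching 2000 bp upstream, with which 3863 of all 19973 protein-coding genes had a peak, gives 7 of 7. It counts this peak for copb-1 as well. These data do not tie the peak to either gene.

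In the outer layer, copb-2 (WBGene00009542), the beta-prime subunit, had rank 1289 and a signal value of 199 at chrIV:9459369-9459514, the narrowest of the peaks at 146 bp. The ranks were 1500 in replicate 1 and 1095 in replicate 2, with signal values of 90.0 and 109. The summit at 9459423 lay 308 bp before the start of copb-2 and inside F38E11.25, a non-coding RNA gene of the opposite strand, 120 bp past its start. cutl-17, the nearest protein-coding gene upstream, begins 2230 bp away and runs in the opposite direction.

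copa-1 (WBGene00022119), the alpha subunit, had rank 1396 and a signal value of 186 at chrI:2900923-2901298. Ranks in the replicates were 1499 and 1300, with signal values of 90.1 and 96.5. The summit at 2901111 lay 251 bp upstream of copa-1 and 214 bp upstream of gst-43, annotated as maleylacetoacetate isomerase, across a gap of 464 bp between the divergent genes. By the nearest start it belonged to gst-43.

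cope-1 (WBGene00009732), the epsilon subunit, had the weakest of the 6 peaks, at rank 2933 with a signal value of 91.7 (chrIII:13426083-13426458). It ranked 3593 in replicate 1 and 2776 in replicate 2, with signal values of 38.5 and 47.6, so in replicate 1 it stood close to the end of the 3641 strongest regions. It was also the single coatomer peak whose -log10 q in a replicate, 3.27 in replicate 2, was below the highest value of that list. The summit at 13426271 lay 7 bp downstream of the start, where the other 5 lay upstream. The summit lay 3 bp after the start in replicate 1 and 2 bp before it in replicate 2, so the side differed between replicates. The gene exo-1, an exonuclease gene on the same strand, ends 59 bp before cope-1. Its own start was not near the summit, so the peak was counted for cope-1 alone.

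**Figure D2:**
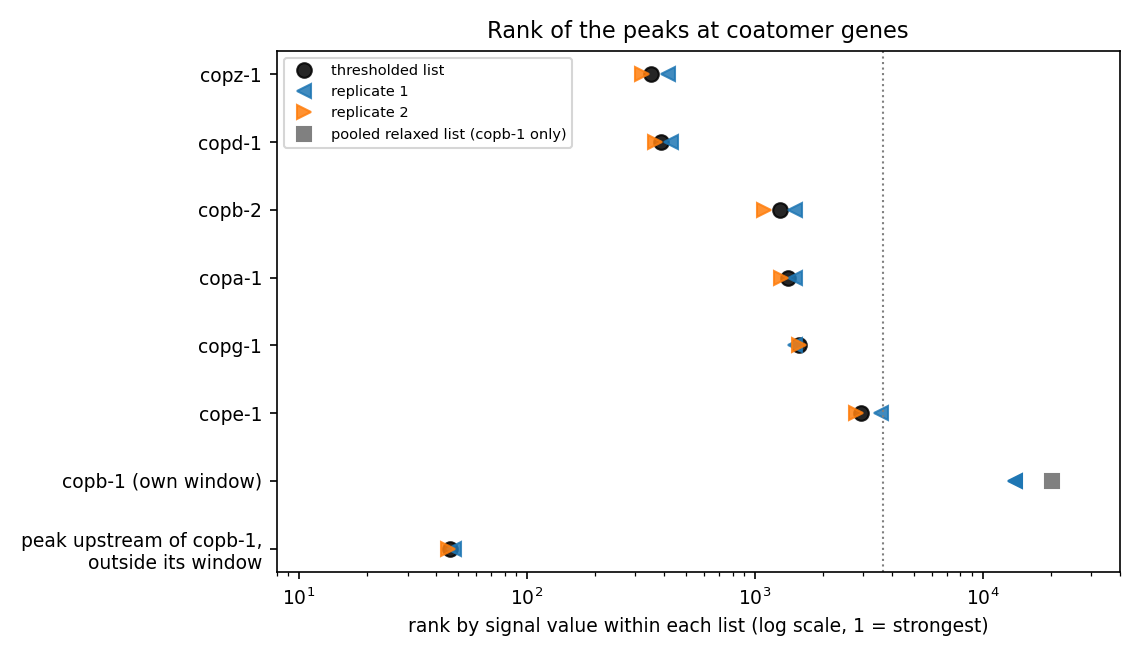
Rank by signal value on a log scale, for each coatomer gene in the thresholded list (black circles), replicate 1 (blue) and replicate 2 (orange), with the dotted line at rank 3641, the end of the thresholded list. copz-1 and copd-1 lead at ranks 350 and 387 and cope-1 is last at 2933, while the copb-1 window holds only a region at rank 20079 of the pooled list (grey square) and 13864 of replicate 1. The lowest row is the peak 1669 bp upstream of copb-1, at ranks 46, 48 and 45.

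The replicates gave all 6 peaks at nearly the same place. A relaxed summit of each replicate lay in the window of 6 of the 7 genes, and of 32.8% of protein-coding genes. The distance between the summits of replicate 1 and replicate 2 was 4 bp at copd-1, 5 bp at cope-1, 7 bp at copz-1, 12 bp at copa-1, 15 bp at copg-1 and 31 bp at copb-2. Their median of 9.5 bp stood beside a median of 15 bp over 3640 thresholded peaks with a summit of each replicate within 300 bp. The larger of the 2 replicate ranks exceeded the smaller by a median factor of 1.23 in the coatomer peaks and 1.22 in all. All 6 were also among the 3641 strongest regions of each replicate alone. The order of copz-1, copd-1 and cope-1 as first, second and last was the same in both replicates. That of copb-2, copa-1 and copg-1 was not, with ranks of 1500, 1499 and 1497 in replicate 1. The thresholded list was made from these replicates, so their agreement describes the list and is no separate test of it.

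Divergent neighbours shared some of the peaks. Counting protein-coding genes, 2 of the 6 peaks were shared, copz-1 with cyn-4 and copa-1 with gst-43, and of all genes with a promoter peak 52.5% shared it with another gene. With windows reaching 2000 bp upstream, 5 genes shared their peak: copa-1, copb-1, copb-2, copg-1 and copz-1. Wider windows take in more neighbours at any gene, and no matching share over all genes is given for that width. With so few peaks no order is read from these shares. Counting genes of every type in the 1000 bp windows, 3 of the 6 peaks were shared, the additional one through F38E11.25 at copb-2. The 4 peaks given to 1 protein-coding gene were those of copd-1, copb-2, copg-1 and cope-1, and these 4 are also the genes left when every summit goes to its nearest start. On the 3' side, the nearest protein-coding genes C13B9.2, bli-5 and F38E11.6 overlap copd-1, cope-1 and copb-2 by 594, 82 and 64 bp on the opposite strand. Past copa-1, copb-1, copg-1 and copz-1 lie arx-1, srg-21, ttr-54 and orc-2, at 1610, 259, 120 and 134 bp.

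The median summit lay 274.5 bp upstream of the start, but annotated starts of C. elegans genes are often not where transcription begins. Many transcripts have their first bases replaced by a spliced leader, and the annotated start is then the splice acceptor, which ends in AG. A start directly after AG was annotated for 6 of the 7 coatomer genes, among them copb-1, which had no promoter peak. The shares were 36.1% of all protein-coding genes and 63.3% of those with a promoter peak. The last 6 bases before the start were TTTCAG at copa-1, copb-2 and copd-1, TTCCAG at copb-1 and TTATAG at copz-1. Of the copg-1 starts, those at 10151949 and 10152338 follow ATTCAG and TTCCAG. The outermost copg-1 start, at 10151947, from which the summit distance was taken, follows CGATTC. The gene without any start after AG was cope-1, with ATATTT before its start and the summit at the start. The distance to the place where transcription begins was not measured.

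The core of the UPR element was at the summit of the weakest coatomer peak. At cope-1, TGACGTG was centred 1 bp from the summit, on the coding strand, with its first base 5 bp after the start, in the 5' UTR. It was the 1 promoter peak of the 6 with the core inside 50 bp on either side of the summit, where 3.43% of the 3641 peaks had it and 0.835% of windows of the same length in promoters without a peak. At copz-1 a copy on the coding strand was centred 69 bp from the summit, inside the peak, so windows of 100 bp on either side give 2 of 6, against 4.56% of all peaks. The peak upstream of copb-1 had the core too, 28 bp from its summit and on the strand that codes for Y25C1A.8. The letters do not occur inside the peaks of copd-1, copb-2, copa-1 or copg-1.

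The other words searched were mostly missing. None of the 6 windows held the cyclic AMP response element TGACGTCA, the E-box CACGTG or GAGAGAGA, which stood in 1.68%, 5.47% and 6.62% of all peaks. CCACGT was in those of cope-1, where it overlaps the core on the other strand, and copa-1, 47.5 bp from the summit, against 5.93% of all peaks. The bare ACGT, part of each of these words but GAGAGAGA, was in 4 of 6 and in 30.1% of all. G and C made up 56.4% of the window at copz-1, 52.5% at copd-1, 49.5% at copb-2, 46.5% at copa-1, 44.6% at copg-1 and 35.6% at cope-1, in the order of their ranks, and 57.4% in the peak upstream of copb-1. The median over all peaks was 47.5%, and 33.7% in promoters without a peak.

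The 3 strongest promoter peaks, of copz-1, copd-1 and copb-2, each held GGTCTCG, and so did the peak upstream of copb-1. In all 4 it lay on the coding strand of the coatomer gene. At copz-1 and upstream of copb-1, though, a divergent neighbour's start was nearer (cyn-4 and Y25C1A.8), and for that gene the strand is reversed. The word's centre was 11 bp from the summit at copd-1, 19 bp at copz-1, 25 bp at copb-2 and 28 bp in the peak upstream of copb-1. In each peak the word was followed, after 2 further bases, by ACGA. The word was found in 4.64% of all thresholded peaks, and the pair with ACGA in 1.29%, against 0.9% and 0.278% of promoters without a peak. In promoter peaks alone the shares were 6.26% and 1.88%. GGTCTCG was chosen because it was seen in these sequences, so its count here is a description and carries no test. copa-1, copg-1 and cope-1 did not have it within 150 bp of the summit.

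The other vesicle coats and the partners of COPI give the setting. Of 24 partner names 19 matched the annotation, and 13 of the 19 genes had one in their window (median rank 1715). They were led by erd-2.1, a KDEL receptor (rank 15), tmed-10, a p24 cargo receptor (rank 179), agef-1, an Arf exchange factor (rank 1168), and F07F6.4 (rank 1170), while gbf-1, the exchange factor that loads Arf at the Golgi, erd-2.2, the second KDEL receptor, and tmed-13 were among the 6 without one. The peak of F07F6.4 was shared with F07F6.2. Arf1 itself did not match under the listed name arf-1.2. As arf-1, looked up afterwards, it had a peak at rank 2331, 387 bp upstream, and sel-9, listed as tmed-2, had one at rank 743. The list for COPII, the coat that buds from the ER, also held genes that are not coat subunits, such as sec-12. It had peaks at 8 of 9 genes with a median rank of 2035.5, and none at sec-24.2. The strongest were those of sec-24.1 (210), sar-1 (254), npp-20 (1191) and sec-12 (1466).

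Clathrin and its adaptors, of which the adaptor subunits are related to the inner coatomer layer, had peaks at 8 of 13 genes with a median rank of 969. They were led by dpy-23 (rank 207), apb-1 (224), aps-1 (265) and aps-3 (883). The peaks of apb-1, aps-1 and aps-3 were shared with mdt-19, rpt-2 and rpl-17 in turn, and that of dpy-23 was not shared. The genes chc-1, the clathrin heavy chain, apb-3 and apd-3 had no peak. The shares were 85.7% for coatomer, 68.4% for its partners, 88.9% for COPII and 61.5% for clathrin and adaptors, all above the 15.5% of genes at large. Differences among the 4 lists were not tested. By rank in the thresholded list and both replicates, the genes most like copz-1 outside its own peak were unc-16, whose ranks differed from it by 19 in sum over the 3 lists, and pfd-6 and rde-2, which share a peak and differed by 30.

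**Figure D3:**
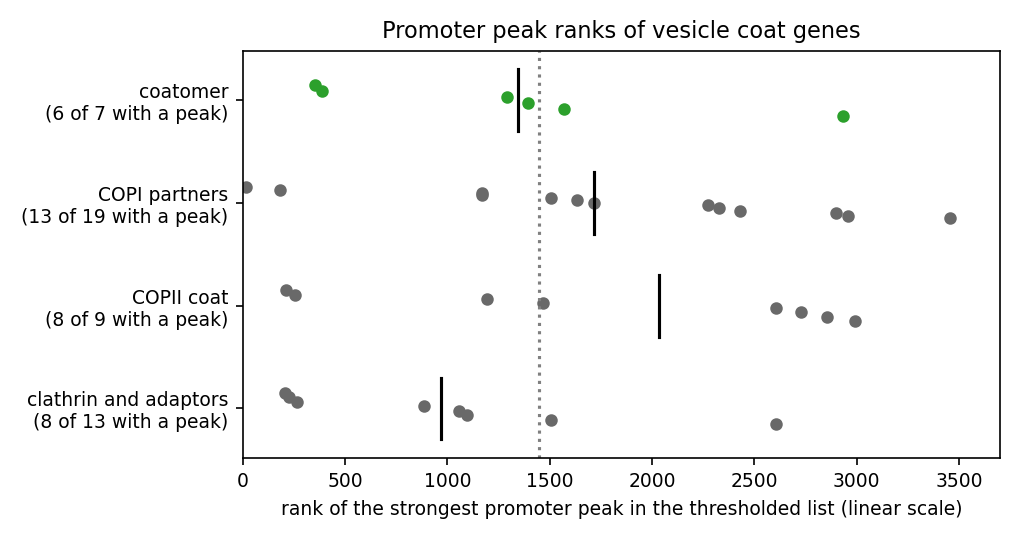
Rank of the strongest promoter peak of each gene with one, on a linear scale, for coatomer (green) and 3 other lists (grey), with black lines at each list's median and the dotted line at 1448.5, the median over all genes with a promoter peak. Coatomer genes gather at ranks 350 to 387 and 1289 to 1569, with cope-1 alone at 2933.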

How the data were processed

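Per the README deposited for each sample, the authors called relaxed regions for replicate 1, replicate 2 and both pooled, and made the thresholded list from these by the IDR procedure. An aligner or peak caller is not given in these sources. The signal value of a region is the authors' own, deposited without a stated scale. The deposited q-value column is read as -log10 q, and it reaches 1 shared highest value over many regions. Depth is unknown, since the lists carry no read totals. The control was not used here. Lists in ce10 coordinates were not used.

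Starts came from Ensembl release 115 and sequences and product names from RefSeq, both of WBcel235, the assembly of ce11. Positions are 1-based. Words were searched on both strands with Python 3.11.15 (pandas 2.3.3). Promoters without a peak are windows of 50 bp on either side of a point 200 bp upstream of the start. No p-value was computed. On simulated data, 500 of 500 summits planted in windows were given to their gene. The members, lists, words and settings were chosen with earlier results of these data known. Named genes are the 7 members, genes sharing or neighbouring their peaks, up to 4 strongest and 3 peakless genes of each other list, and the 3 most like copz-1. arf-1, sel-9 and GGTCTCG were added after values were seen.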

Additional observations from a re-analysis of the deposited data

How the results depend on the processing

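The count of coatomer genes with a promoter peak lay between 4 and 7 over 8 alternatives. With windows of 500 bp it was 5 (without copd-1), beside 2549 of all 19973 protein-coding genes. With 2000 bp it was 7 (with copb-1), beside 3863 of them. It was 4 with nearest starts (without copa-1 and copz-1) and 5 among the 1820 strongest peaks (without cope-1). It was 6 with any base of a peak in the window and with either replicate left out. The strongest pooled regions also gave 6, but they are the thresholded list itself, so that setting could not differ. The median rank was 1197.5 without replicate 1 and 1498 without replicate 2, and 1396 and 1289 with windows of 500 and 2000 bp. The count of members with a summit in both replicates was 6 under each of 3 other matching rules. With windows of 2000 bp, 5 members shared their peak instead of 2, and no share over all genes is given at that width. Searching 100 bp on either side of the summit, or the whole peak, found the UPR core in 2 peaks instead of 1. The median summit position ranged from -272 to -262 bp with a replicate left out, against -274.5 bp. Among the 1820 strongest peaks 1854 protein-coding genes had a promoter peak instead of 3092, since that list has fewer peaks; giving each summit to the nearest start, added after the data were seen, gave 3066. Ranking by the p-value column was not run, since it holds 1 value throughout. No paired analysis was possible because both replicates belong to 1 group and no test was made. With depth unknown, the absence of a region at copb-1 in replicate 2 is not read as absence of binding.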

Other observations

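The word GGTCTCG, noticed at the coatomer summits, was commoner at strong peaks of the whole list. It lay within 50 bp of the summit in 9.2% of the 500 strongest peaks, 5.45% of the next 1320 and 2.80% of the remaining 1821, against 1.69% of windows 500 bp away from the summits. The sites where it was noticed are among these peaks, at ranks 46, 350 and 387 in the first group and 1289 in the second. Of the 169 peaks with the word, 150 were promoter peaks, and the groups were not split by promoter. The word's centre was a median of 14 bp from the summit over 169 occurrences. Among 70 promoter peaks in the window of 1 gene only that had the word on 1 strand, it lay on the strand of that gene in 46 (65.7%). The peaks of copd-1 and copb-2, where the word was noticed, meet this definition, so the share is not independent of them. The median share of G and C was 47.5% in windows at summits and 33.7% in promoters without a peak, and the shares of the word were not matched for composition.

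The word was in 3 of 6 coatomer peaks and 1 of 13 peaks of COPI partners (erd-2.1). It was in 1 of 8 peaks of the COPII list (sec-24.1). Among clathrin and adaptors it was in 1 of 8 (aps-3, in a peak shared with rpl-17). GGTCTCG was picked from the coatomer sequences, so its counts are no comparison of coatomer with the other lists. TGACGTG, by comparison, was in 1 of 6, 3 of 13 (agef-1, erd-2.1 and smgl-1), 2 of 8 (sar-1 and sec-31) and 0 of 8, which allows a share of up to 37.5% (3 counts of 8). Of the peaks named here, those of erd-2.1 and upstream of copb-1 had both words within 50 bp of the summit.

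A further word seen in the sequences, ACGTGGAT, lay beside 3 of the 7 sites. It was centred 71.5 bp from the summit at copz-1, 76.5 bp in the peak upstream of copb-1 and 86.5 bp at copa-1. Each time it lay on the coding strand of the coatomer gene and on that gene's side. Each of these summits was nearer the start of a divergent neighbour (cyn-4, Y25C1A.8 or gst-43), for which strand and side are reversed. At copz-1 the word overlaps the UPR core. Windows of 201 bp around all summits held it in 0.769% of cases. No test was made, as the word was picked from these sites.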
